A study of Mus musculus with 120 samples.

Results

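Ribosome footprints, the short mRNA pieces that translating ribosomes protect from nuclease, were compared between the endoplasmic reticulum (ER) and the cytosol of wild-type mouse embryonic fibroblasts after 0.5 h of thapsigargin. The comparison covers 7446 of the 22417 genes in the deposited footprint table, namely those with a total footprint level of 10 RPKM (reads scaled to coding length and library size) or more and a given fraction on the ER. Of these, 1414 carry the authors' mark as ER-targeted (18.99%) and 6032 do not (81.01%). The sources used here do not say how that mark was set. The ER level of a gene is its total times the fraction on the ER, and the cytosol level is the remainder.

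The series holds 120 samples in 60 groups, from 3 genotypes, 2 fractions, 2 kinds of library and 5 times. The ER fraction of WT C57BL/6 fibroblasts given 1 µM thapsigargin for 0.5 h is set against the cytosol fraction of such cells, with 2 libraries each. Per the labels, the detergents digitonin and DDM separated the fractions, and untreated WT C57BL/6 cells, fractionated alike, give the comparison with 0 h. The labels do not tie the replicates of a fraction to different cultures. Each p-value reflects the spread between replicate libraries in a fit of all 20 WT footprint libraries, not of 0.5 h alone. That spread could be technical. Every level sums over a whole cell population, so fewer cells with a footprint and fewer footprints per cell cannot be told apart.

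Most proteins that enter the secretory pathway begin with a hydrophobic signal sequence or membrane segment. As it leaves the ribosome it is bound by the signal recognition particle (SRP), which brings ribosome and mRNA to the SRP receptor and the Sec61 channel of the ER. Tail-anchored proteins carry their only membrane segment near the C-terminus and are inserted after translation has ended. Thapsigargin blocks the calcium pump of the ER, which impairs folding there and activates PERK, the kinase that phosphorylates the initiation factor eIF2α.

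Coding sequences of 6 genes described below are printed to show where the hydrophobic stretch lies, since genes with an early stretch and genes with a late one had different values. Capitals mark the bases for the 19 residues of highest mean Kyte-Doolittle hydropathy in the printed stretch, from GENCODE transcripts on GRCm38, 5′ to 3′ on the coding strand. The first 3 are the coding starts of secretory proteins, Sec61g and Bnip3 are the coding ends of tail-anchored proteins, and Eef1a1 is the coding start of a cytosolic translation factor.
Hspa5: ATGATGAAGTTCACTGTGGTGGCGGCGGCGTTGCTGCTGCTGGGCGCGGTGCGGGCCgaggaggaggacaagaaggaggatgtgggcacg
Calr: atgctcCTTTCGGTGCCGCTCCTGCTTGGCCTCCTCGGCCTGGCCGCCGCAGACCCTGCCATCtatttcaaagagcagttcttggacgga
Ctgf: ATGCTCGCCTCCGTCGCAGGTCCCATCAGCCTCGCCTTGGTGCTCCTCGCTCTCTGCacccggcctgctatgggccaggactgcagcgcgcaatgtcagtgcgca
Sec61g: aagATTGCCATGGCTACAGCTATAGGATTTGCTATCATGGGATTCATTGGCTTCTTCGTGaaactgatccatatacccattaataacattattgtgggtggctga
Bnip3: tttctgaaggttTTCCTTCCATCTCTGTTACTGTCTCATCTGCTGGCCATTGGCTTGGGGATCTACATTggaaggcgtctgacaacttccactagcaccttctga
Eef1a1: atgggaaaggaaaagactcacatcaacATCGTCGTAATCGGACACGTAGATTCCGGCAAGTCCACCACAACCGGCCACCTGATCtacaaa
The marked stretch begins at residue 1 of Hspa5 and Ctgf and at residue 3 of Calr, with mean hydropathies between 1.78 and 2.30. In Sec61g it is followed by 14 residues and in Bnip3 by 11, with means of 2.24 and 1.91. The highest stretch in the Eef1a1 start has a mean of 0.589, below the 1.6 used here for a membrane-type stretch. These genes lie on chromosome 2 (Hspa5, 34771970 to 34777547, 8 exons), chromosome 8 (Calr, 84841850 to 84846934, 9 exons), chromosome 10 (Ctgf, 24595442 to 24598683, 5 exons), chromosome 11 (Sec61g, 16500530 to 16508484, 4 exons), chromosome 7 (Bnip3, 138890836 to 138909519, 6 exons) and chromosome 9 (Eef1a1, 78478449 to 78489151, 8 exons) of GRCm38.

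Levels of single libraries were recovered from the pooled values, and libraries are called a and b, where 1 read is worth less RPKM in a. ER libraries a and b held 2926770 and 2013952 reads, and cytosol libraries a and b held 1427978 and 300176. A member with a value had a median of 156 and 108 reads in ER libraries a and b, against 64 and 17 in cytosol libraries a and b. Of the 10 fibroblast markers, 8 had a total of 10 RPKM or more, whereas all 6 epithelial markers were listed at 0. The 5 endothelial markers summed to 0.692 RPKM, with 2 at 0, and the 5 blood markers in the table to 0.824 RPKM, with 4 at 0. Of 5 neural markers 3 reached 10 RPKM (highest Tubb3, 78.9 RPKM), and of 5 muscle markers 2 did (highest Acta2, 1210 RPKM).

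Cytosol library b stood apart from the other WT cytosol libraries. ER-targeted members made up 17.4% and 17.1% of the members' summed level in ER libraries a and b, 14.04% in cytosol library b and 6.19% in cytosol library a. In the other 9 WT cytosol libraries of all times that share lay between 4.24% and 7.42%. Of 1184 ER-targeted members with values in both cytosol libraries, 1060 (89.5%) were higher in b than in a, with a median log2 difference of 1.57. Of 5089 other members, 2548 (50.1%) were higher in b, with a median of 0.0013. The leading counts below are therefore given with and without cytosol library b, and so are single genes where it moves the value by over 1.5 times.

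A further difference between libraries concerned genes that interferon induces, among them Isg15, a ubiquitin-like modifier, Usp18, the protease that removes it, and Ifit1, an RNA-binding antiviral protein. The summed level of Usp18, Isg15, Ifit1, Xaf1, Ifi202b and Oasl2 was 26.2 and 30.5 RPKM in ER libraries a and b at 0.5 h, against 543 and 332 RPKM in cytosol libraries a and b. In untreated cells the sum was 94.8 and 596 RPKM in the ER libraries and 909 and 663 RPKM in the cytosol libraries. At 4 h it was 1148 and 966 RPKM in the ER and 1494 and 1891 RPKM in the cytosol. The ER libraries of 0.5 h, ER library a of 0 h and both libraries a of 1 h were thus low in these genes, and the other libraries were high. Whether the fractions of 0.5 h came from the same cultures was not tested, and the part of this difference in the other results was not tested.

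**Figure D1:**
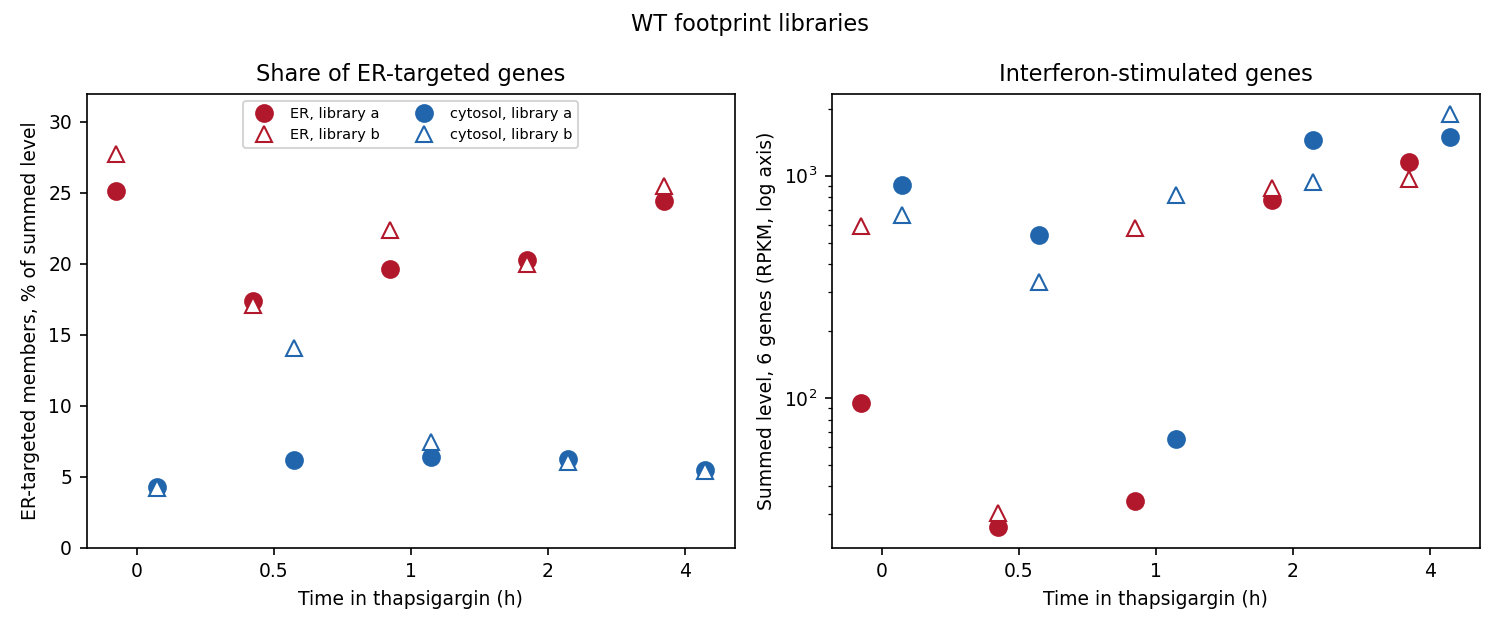
Left, the share of the members' summed level that came from ER-targeted genes in each of the 20 WT footprint libraries (circles, library a; triangles, library b; red, ER; blue, cytosol) by time, and right, the summed level of 6 interferon-stimulated genes in the same libraries on a log axis. Cytosol library b of 0.5 h lies at 14.04%, above the other cytosol libraries, and both ER libraries of 0.5 h lie at 26.2 and 30.5 RPKM in the right panel, below both cytosol libraries.

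After 0.5 h of thapsigargin, ER-targeted members had a median of 0.470 of their footprints on the ER (quartiles 0.34995 and 0.557), against 0.320 (0.259 and 0.393) for the other members, by the deposited pooled fractions. In untreated cells the 1192 ER-targeted members with a fraction had a median of 0.938, and 6015 others had 0.377. The 222 ER-targeted members without an untreated fraction had a median of 0.499 at 0.5 h. A fraction above 0.5 was found at 0.5 h for 578 ER-targeted members (40.9%), against 954 of the 1192 with an untreated fraction (80.0%). With cytosol library a alone, the median at 0.5 h was 0.676 for ER-targeted members and 0.326 for the others. With cytosol library b alone it was 0.377 for ER-targeted members and 0.329 for the others. The difference between medians of log2(ER + 1) − log2(cytosol + 1) for the 2 classes was 1.09 with both cytosol libraries, 1.93 without b and 0.29 without a. In untreated cells it was 3.72 with cytosol library a and 3.85 with library b. Both cytosol libraries of 0.5 h thus placed the classes closer together than either untreated cytosol library did, by amounts that differed between a and b.

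**Figure D2:**
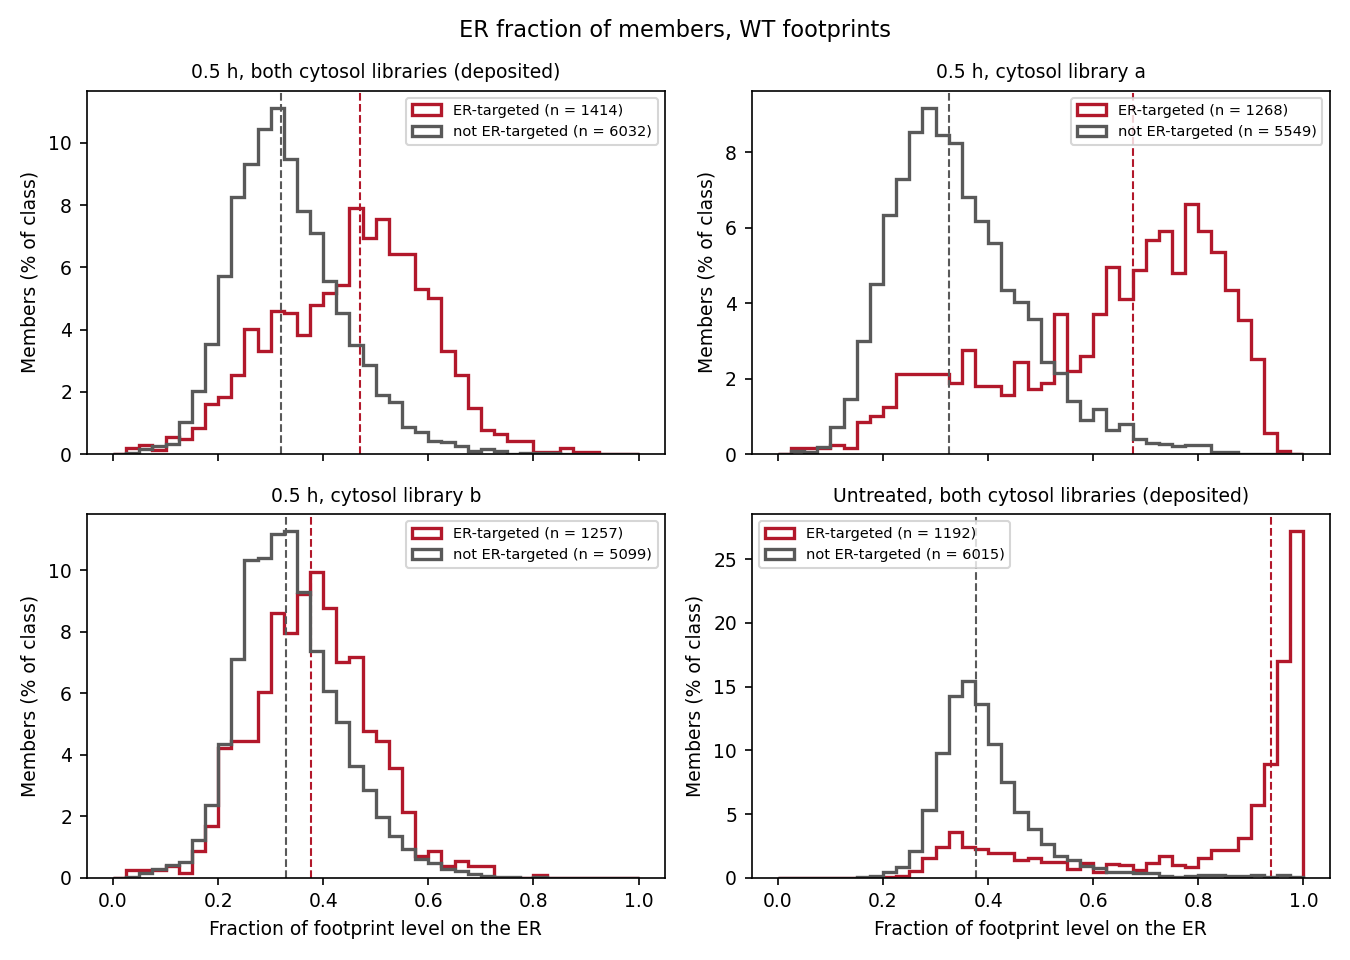
Distributions of the fraction of footprint level on the ER for ER-targeted members (red) and other members (grey), as the percentage of each class per bin, with dashed lines at the medians. At 0.5 h the medians of the classes are 0.470 and 0.320 with both cytosol libraries, 0.676 and 0.326 with library a, and 0.377 and 0.329 with library b, while untreated cells have 0.938 and 0.377.

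Both sides of the balance differed from untreated cells. The ER level of ER-targeted members was lower at 0.5 h than in untreated cells, with a median log2 difference of -0.87 over 1128 members, 157 of which were higher. Their cytosol level was higher, with a median of 1.20 in library a (1019 of 1106 members higher) and 2.96 in library b (975 of 1062 higher). For the other members the medians were -0.21 for the ER level, 0.13 for cytosol library a and 0.15 for cytosol library b. These medians are on the deposited scale and carry no test.

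The test of ER against cytosol was limma on log2(RPKM + 1) over the 20 WT footprint libraries, with a library under 4 reads dropped for that gene. Of 9355 genes tested, 2.33% were higher in the ER and 45.1% were higher in the cytosol at an adjusted p below 0.05. Of 6897 members tested, 100 were higher in the ER (1.45%) and 3796 were higher in the cytosol (55.0%). ER-targeted members made up 66 of the 100 and 241 of the 3796, and 1031 of the 1338 tested passed on neither side. Of 5559 other members, 34 were higher in the ER and 3555 in the cytosol. Without cytosol library b, 11.5% of 9159 genes were higher in the ER and 41.2% in the cytosol. The members then gave 755 higher in the ER and 3437 higher in the cytosol, and 629 of the 755 were ER-targeted, out of 1266 ER-targeted members tested.

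These counts depend on how the fractions are scaled. The deposited scale keeps weights that the authors gave to the fractions, and on it the median ER minus cytosol difference over all genes was -0.69 on the log2 scale. It was 0.23 with all libraries scaled to a common sum, which gave 1030 members higher in the ER and 447 in the cytosol, and 0.00 with TMM-type scaling, which gave 689 and 797. ER-targeted members made up 484 of the 1030 and 402 of the 689. The difference between class medians was 1.06 and 1.07 under these scalings. Scaling multiplies all values of a library by the same factor and shifts both classes nearly alike. This difference could therefore hardly move, and its values are no check on it. Differences below are on the deposited scale and are to be read against its median of -0.69.

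Secreted matrix and signalling proteins had 34 members, all ER-targeted, with a median fraction on the ER of 0.533 at 0.5 h against 0.987 untreated. Of 33 tested, 4 were higher in the ER and 0 in the cytosol by limma, and without cytosol library b 25 were higher in the ER. Ctgf, a matrix-associated growth factor, had 579 and 597 RPKM in ER libraries a and b, against 59.5 and 320 RPKM in cytosol libraries a and b. Both ER libraries were above both cytosol libraries, with a log2 difference of 2.08 ± 0.56 (SE, adjusted p = 0.0075 by limma), 3.28 ± 0.43 without cytosol library b, and 0.88 (adjusted p = 0.091) without cytosol library a. Thbs1, which encodes the adhesive matrix protein thrombospondin 1, had 528 and 544 RPKM in the ER, against 77.0 and 729 RPKM in the cytosol. Here the fractions overlapped, and the log2 difference of 1.17 ± 0.69 did not pass the test (adjusted p = 0.18 by limma), while without cytosol library b it was 2.78 ± 0.43 (adjusted p = 0.00015). Timp1, an inhibitor of matrix metalloproteinases, had 444 and 403 RPKM in the ER, against 296 and 596 RPKM in the cytosol, and the fractions overlapped as well.

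The matrix proteoglycans decorin (Dcn) and lumican (Lum) lay far from the rest of that list. Dcn had 18.9 and 17.3 RPKM in the ER, against 12.5 and 274 RPKM in the cytosol, so cytosol library b stood above the other 3 libraries. Lum had 1.76 and 2.10 RPKM in the ER, against 1.59 and 48.1 RPKM in the cytosol, in the same arrangement. Their untreated ER libraries also differed from each other, with 60.2 and 270 RPKM for Dcn and 7.45 and 60.1 RPKM for Lum.

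The members with the largest ER-ward differences among ER-targeted genes that passed the test included Msln, Ctgf, Slco4a1, Fbln2 and Scd2. Msln, which encodes the cell surface protein mesothelin, had 106 and 128 RPKM in the ER, against 14.4 and 25.002 RPKM in the cytosol. Its log2 difference was 2.55 ± 0.66 (SE, adjusted p = 0.0056 by limma). Slco4a1, an organic anion transporter of the plasma membrane, had 51.7 and 47.9 RPKM in the ER, against 5.96 and 22.5 RPKM in the cytosol, a log2 difference of 1.99 ± 0.47 (adjusted p = 0.0031 by limma). It was 2.87 without cytosol library b and 1.11 without cytosol library a, past the threshold in both. For both genes each ER library was above each cytosol library. Fbln2, a matrix glycoprotein, had a log2 difference of 1.75 ± 0.68 (adjusted p = 0.046 by limma) with both cytosol libraries of 3.37 ± 0.40 (adjusted p = 2.5e-05) without cytosol library b, and of 0.13 (adjusted p = 0.79) without cytosol library a. Its call was also lost without either ER library.

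ER chaperones and folding enzymes had a median fraction on the ER of 0.538 at 0.5 h against 0.988 untreated over 19 members. Of 18 tested, 1 was higher in the ER by limma, and 17 were without cytosol library b. Hspa5 (BiP), the main Hsp70 chaperone of the ER, had 705 and 710 RPKM in the ER, against 118 and 796 RPKM in the cytosol. In untreated cells it had 647 and 775 RPKM in the ER and 6.06 and 9.39 RPKM in the cytosol. Its ER level at 0.5 h thus lay within the range of the untreated libraries, while both cytosol libraries were above both untreated ones. Calr, a calcium-binding chaperone, had 800 and 816 RPKM in the ER, against 263 and 1061 RPKM in the cytosol, where untreated cells had 1471 and 1573 RPKM in the ER and 11.02 and 18.3 RPKM in the cytosol. For Calr the ER level at 0.5 h was below both untreated ER libraries.

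The machinery of entry into the ER, with 21 members, had a median fraction of 0.505 against 0.975 untreated. None of the 21 passed the limma test on either side (2.33% and 45.1% of all genes did), and 13 were higher in the ER without cytosol library b. Ssr3, a subunit of the translocon-associated complex, had 241 and 247 RPKM in the ER, against 121 and 421 RPKM in the cytosol. Receptors and carriers of the plasma membrane, with 25 members, had a median of 0.568 against 0.987 untreated, and 4 were higher in the ER with both cytosol libraries and 23 without b. Cd63, a membrane protein of late endosomes, had 380 and 298 RPKM in the ER, against 134 and 486 RPKM in the cytosol. Golgi and lysosome proteins, with 20 members, had a median of 0.516 against 0.988 untreated, and of 18 tested without cytosol library b, 17 were higher in the ER. With both cytosol libraries, 0 of 19 were higher in the ER and 1, the cholesterol transporter Npc1, was higher in the cytosol. Npc1 rested on cytosol library b alone, since library a held under 4 reads of it.

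Sterol and fatty acid enzymes and regulators of the ER membrane, with 18 members, had the highest list median at 0.5 h, 0.615, against 0.972 untreated. Of these, 7 were higher in the ER by limma with both cytosol libraries, and 13 were without b. Scd2, a stearoyl-CoA desaturase, had 412 and 406 RPKM in the ER, against 75.9 and 198 RPKM in the cytosol, and the fractions did not overlap. Its log2 difference was 1.73 ± 0.57 (SE, adjusted p = 0.022 by limma) and missed the threshold without cytosol library a, at 1.04 (adjusted p = 0.17), was 2.42 without cytosol library b, and missed the threshold without either ER library (adjusted p = 0.085 and 0.080). Srebf2, the membrane-bound transcription factor that governs sterol synthesis, is not marked as ER-targeted, yet had 16.4 and 17.3 RPKM in the ER, against 5.00 and 7.49 RPKM in the cytosol. Its log2 difference was 1.32 ± 0.29 (adjusted p = 0.0019 by limma), and its fraction was 0.729 at 0.5 h against 0.960 untreated.

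Membrane proteins of ER-associated degradation and of stress signalling, with 11 members, 8 of them marked, had a median of 0.548 against 0.9502 untreated. With both cytosol libraries 0 of the 11 were higher in the ER by limma, and 8 were without b. The ubiquitin-conjugating enzyme Ube2j1, a tail-anchored protein, was higher in the cytosol in both fits, with 16.0459 and 16.9 RPKM in the ER, against 80.7 and 51.1 RPKM in the cytosol.

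Tail-anchored membrane proteins, with 28 members, all marked as ER-targeted, had a median fraction of 0.301 at 0.5 h against 0.335 untreated. Of the 28, 0 were higher in the ER and 21 were higher in the cytosol by limma, with both cytosol libraries and also without b. Of all genes tested, 45.1% were higher in the cytosol with both cytosol libraries and 41.2% without b. Among all ER-targeted members tested, 241 of 1338 were higher in the cytosol with both cytosol libraries and 177 of 1266 without b. Sec61g, a small subunit of the Sec61 channel, had 289 and 298 RPKM in the ER, against 857 and 702 RPKM in the cytosol, a log2 difference of -1.40 ± 0.24 (adjusted p = 0.00031 by limma). Bnip3, a mitophagy receptor of the outer mitochondrial membrane, had 32.7 and 24.4 RPKM in the ER, against 204 and 205 RPKM in the cytosol, a log2 difference of -2.81 ± 0.47 (adjusted p = 0.00026 by limma). For both genes each ER library was below each cytosol library. The list median was -0.36 under TMM-type scaling and -0.12 with a common sum, beside 0.00 and 0.23 for all genes, and 6 of the 28 were higher in the cytosol under each, with 1 higher in the ER under the common sum.

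The ER-targeted members with the largest cytosol-ward differences were Rtp4, Smim8, Bnip3 and Tmem242. Rtp4, an interferon-induced chaperone of receptors, had 3.51 and 3.46 RPKM in the ER, against 46.4 and 54.8 RPKM in the cytosol, and its untreated ER libraries had 8.74 and 74.3 RPKM. Its call was lost without cytosol library b, at -3.40 (adjusted p = 0.088 by limma), and without any other library of the pair. Smim8, a small membrane protein, had 4.30 and 3.12 RPKM in the ER, against 34.5 and 33.4 RPKM in the cytosol. Its log2 difference was -2.90 ± 0.39 (adjusted p = 5.6e-05 by limma), on only 12 and 6 ER reads and 25 and 5 cytosol reads. Tmem242 had 12.2 and 11.9 RPKM in the ER, against 193 and 37.1 RPKM in the cytosol, from 202 and 8 cytosol reads. Its cytosol libraries thus differed from each other by more than those of the ER.

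Among members not marked as ER-targeted, the lists of cytosolic proteins lay on the cytosol side. Cytosolic ribosomal proteins, with 75 members, had a median fraction on the ER of 0.282 at 0.5 h against 0.329 untreated, and 68 of 74 were higher in the cytosol by limma. Proteasome subunits had 0.262 against 0.338, and all 30 were higher in the cytosol. Cytosolic chaperones had 0.251 against 0.391, with 17 of 19 higher in the cytosol, translation factors 0.278 against 0.351, with 19 of 24, and aminoacyl-tRNA synthetases 0.306 against 0.382, with 16 of 19. Glycolytic enzymes had 0.292 against 0.377, with 13 of 14 higher in the cytosol, and cytoskeletal proteins 0.317 against 0.332, with 21 of 28. Beside these counts, 63.95% of all tested members without the mark were higher in the cytosol. Relative to the median of all genes these differences are smaller: under TMM-type scaling the list medians ran from -0.73 (cytosolic chaperones) to -0.29 (cytoskeleton), and 12 of the ribosomal proteins and 12 of the proteasome subunits were still higher in the cytosol. With a common sum, 7 ribosomal proteins, 7 proteasome subunits, 5 cytosolic chaperones and 4 translation factors were higher in the cytosol. So were 1 synthetase, 1 glycolytic enzyme and 1 cytoskeletal protein. Under that scaling 2 cytosolic chaperones, 1 synthetase and 1 cytoskeletal protein were higher in the ER. Reads of ribosomal protein genes are uncertain where processed pseudogenes share their sequence.

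Gapdh, a glycolytic enzyme, had 709 and 742 RPKM in the ER, against 1810 and 1858 RPKM in the cytosol, a log2 difference of -1.34 ± 0.17 (adjusted p = 4.2e-05 by limma). Eef1a1, the factor that brings aminoacyl-tRNA to the ribosome, had 3625 and 4130 RPKM in the ER, against 12725 and 7313 RPKM in the cytosol. Its log2 difference was -1.32 ± 0.29 (adjusted p = 0.0021 by limma). For both, each cytosol library was above each ER library. Psma4, a subunit of the proteasome core, had 86.3 and 96.5 RPKM in the ER, against 636 and 252 RPKM in the cytosol.

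Mitochondrial proteins made in the cytosol also lay on the cytosol side, although some are marked as ER-targeted. Nuclear-encoded oxidative phosphorylation proteins, with 42 members of which 12 are marked, had a median of 0.299 at 0.5 h against 0.404 untreated, and 33 were higher in the cytosol by limma. Mitochondrial carriers, with 18 members of which 9 are marked, had 0.263 against 0.397, and 12 were higher in the cytosol. Cytochrome c (Cycs), an electron carrier, had 150 and 198 RPKM in the ER, against 539 and 1320 RPKM in the cytosol. Of all members tested, 55.0% were higher in the cytosol. Under TMM-type scaling the list medians were -0.39 and -0.62, with 8 and 1 higher in the cytosol. With a common sum 4 and 0 were, and 1 of each list was higher in the ER.

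**Figure D3:**
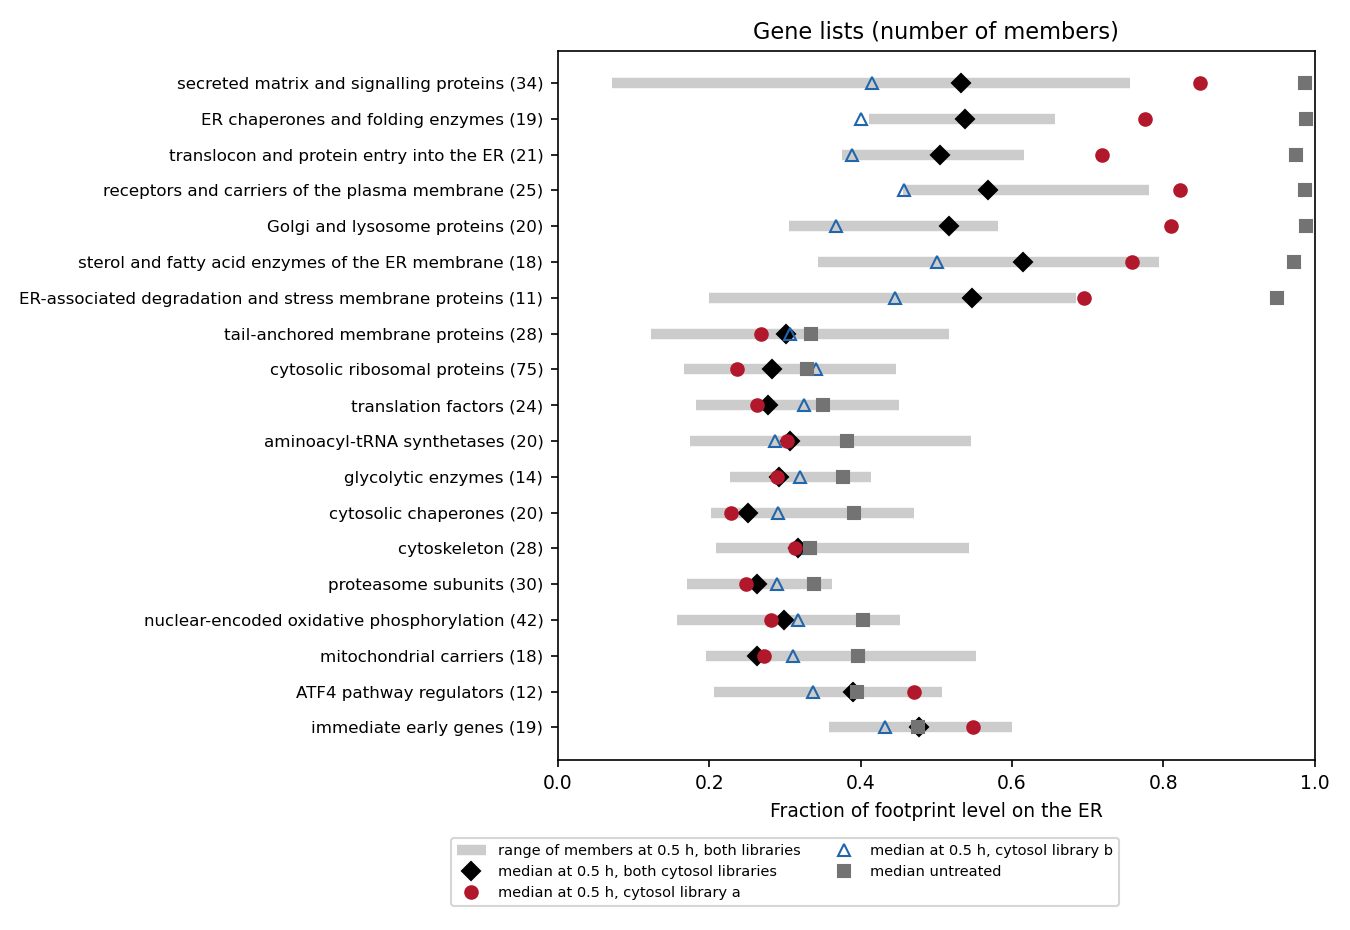
Median fraction of footprint level on the ER for 19 gene lists, with the number of members in brackets. Diamonds mark the deposited values at 0.5 h, red circles and blue triangles the values with cytosol library a or b alone, squares untreated cells, and bars the range of members at 0.5 h. The 7 lists of secretory and ER membrane proteins have untreated medians of 0.9502 to 0.988, and tail-anchored, cytosolic and mitochondrial lists have medians of 0.251 to 0.317 at 0.5 h.

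The ATF4 pathway list holds transcription factors and other regulators such as the phosphatase subunit Ppp1r15a. Its median fraction was 0.389 at 0.5 h against 0.395 untreated over 12 members. By limma 4 of 11 were higher in the cytosol, beside 63.95% of all tested members without the mark. The median log2 difference of the list was -0.56, and -0.17 without cytosol library b. Atf4, the transcription factor whose translation rises when eIF2α is phosphorylated, had 367 and 378 RPKM in the ER, against 562 and 753 RPKM in the cytosol, where untreated cells had 31.7 and 57.3 RPKM in the ER and 100.5 and 73.8 RPKM in the cytosol. Its levels were thus higher at 0.5 h in both fractions, with a fraction of 0.362 against 0.338. The log2 difference of -0.80 ± 0.24 (adjusted p = 0.014 by limma) turned positive, without passing the test, under a common sum (0.26) and TMM-type scaling (0.02). Immediate early genes had a median of 0.478 against 0.476 untreated over 19 members. Of these, 2 were higher in the cytosol, beside the same 63.95%. As deposited their median log2 difference was -0.09, beside -0.69 for all genes. With a common sum it was 0.97 beside 0.23. Under TMM-type scaling it was 0.73 beside 0.00, and 8 were higher in the ER. The list median was thus above that of all genes on each scale, while its side of 0 depended on the scale.

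Members not marked as ER-targeted with the largest ER-ward differences were Dvl1, Als2cl, Trio, Srebf2, Alkbh1 and Ankle1. Dvl1, an adaptor of Wnt signalling, had 12.4 and 9.86 RPKM in the ER, against 2.52 and 3.75 RPKM in the cytosol. Its log2 difference was 1.56 ± 0.41 (adjusted p = 0.0064 by limma). The cytosol values rested on few reads, 13 and 4 for Dvl1 and 8 and 4 for Ankle1, where fewer than 4 counted as missing. Trio had 106 and 52 cytosol reads. Trio, a guanine nucleotide exchange factor, had 20.6 and 19.3 RPKM in the ER, against 4.601 and 10.9 RPKM in the cytosol, a log2 difference of 1.36 ± 0.35 (adjusted p = 0.0056 by limma). In all 6 the ER libraries were above the cytosol libraries, at ER levels between 8.65 and 22.9 RPKM. Without cytosol library a the calls of Trio, Alkbh1 and Ankle1 were lost, at 0.82, 0.79 and 0.79 (adjusted p = 0.053, 0.074 and 0.16 by limma). The call of Dvl1 was lost without ER library a, at 1.41 (adjusted p = 0.052).

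The largest cytosol-ward differences among members without the mark belonged to the 6 interferon-stimulated genes named above. Usp18 had 1.23 and 1.24 RPKM in the ER, from 13 and 9 reads, against 41.7 and 28.3 RPKM in the cytosol. Its log2 difference was -3.98 ± 1.08 (adjusted p = 0.0075 by limma). Isg15 had 16.7 and 17.9 RPKM in the ER, against 358 and 161 RPKM in the cytosol, a log2 difference of -3.72 ± 1.19 (adjusted p = 0.019 by limma). Untreated ER libraries a and b had 5.10 and 47.5 RPKM of Usp18, and 73.2 and 394 RPKM of Isg15, so library b was high and library a low. The call of Oasl2 was lost without cytosol library b (adjusted p = 0.068 by limma) and that of Isg15 without cytosol library a (adjusted p = 0.075), and both were lost without either ER library.

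The members with the highest totals were B2m, Ppbp, Ost4 and Calr with the mark and Rpl41, S100a6, S100a4 and Eef1a1 without it. B2m, the light chain of MHC class I, had 849 and 884 RPKM in the ER, against 379 and 3339 RPKM in the cytosol, so the cytosol libraries lay on either side of the ER libraries. Ost4, a very small subunit of the oligosaccharyltransferase, had 894 and 688 RPKM in the ER, against 1119 and 1038 RPKM in the cytosol, with a fraction of 0.423 at 0.5 h against 0.430 untreated. S100a6, a calcium-binding protein, had 4455 and 5550 RPKM in the ER, against 12078 and 11456 RPKM in the cytosol, a log2 difference of -1.24 ± 0.31 (adjusted p = 0.0045 by limma).

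**Figure D4:**
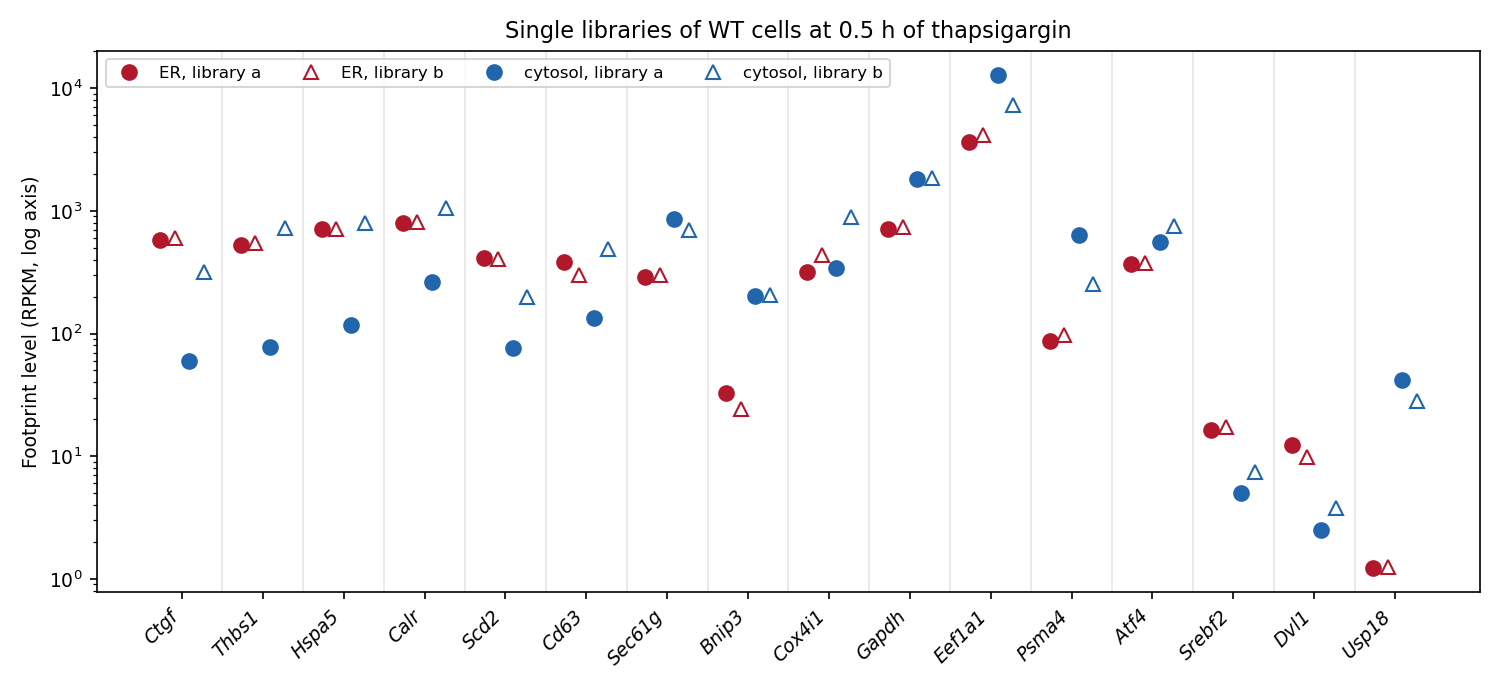
Footprint level of 16 members in each WT library of 0.5 h (red, ER; blue, cytosol; filled circles, library a; open triangles, library b), on a log axis. For Thbs1, Hspa5, Calr and Cd63 cytosol library b lies near or above the ER libraries and library a below them, whereas for Sec61g, Bnip3, Gapdh, Eef1a1, Psma4 and Usp18 both cytosol libraries lie above both ER libraries.

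Hydrophobic stretches, which the choice of members did not use, were counted in the translation of each coding sequence, for 1354 ER-targeted members and 5654 others. A first stretch within the first 60 residues was found in 704 ER-targeted members (52.0%) and 71 others (1.26%), and no stretch in 189 (13.96%) and 5012 (88.6%). ER-targeted members with an early stretch had a median fraction on the ER of 0.496 at 0.5 h against 0.961 untreated, and 0.716 with cytosol library a alone. The 349 with a first stretch further in had 0.475 against 0.926, and 0.678 with library a. In the 112 with a single stretch near the C-terminus the median was 0.341 against 0.386 untreated, and 0.343 with library a. With library b alone the medians were 0.387 for an early stretch, 0.388 further in and 0.345 near the C-terminus. With both cytosol libraries, 39 of 690 early-stretch members and 6 of 111 late-stretch members were higher in the ER by limma. Higher in the cytosol were 60 and 57. Of all 1338 ER-targeted members tested, 66 were higher in the ER and 241 in the cytosol. Median log2 differences of early-stretch and late-stretch members were 0.26 and -0.84, and without cytosol library b 1.16 and -0.91.

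Among ER-targeted members with an early stretch, longer coding sequences went with a higher fraction. The median was 0.563 over 118 members with a coding length above 2000 nt, 0.508 over 251 of 1000 to 2000 nt and 0.470 over 323 below 1000 nt. With cytosol library a alone these medians were 0.829, 0.756 and 0.632, and in untreated cells 0.985, 0.967 and 0.925. The order was thus the same in untreated cells, and no test was made of it.

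The change of the split was tested against untreated cells, as (ER − cytosol at 0.5 h) − (ER − cytosol untreated) in the same limma fit. Of 8801 genes tested, 14.6% had a lower difference at 0.5 h and 0.182% a higher one. Of 6677 members tested, 1175 were lower (17.6%) and 8 were higher (0.120%). ER-targeted members made up 773 of the 1175, out of 1128 tested (68.5%), and other members 402, out of 5549 (7.24%). Without cytosol library b, 14.7% of 8739 genes were lower and 0.572% higher, and 1196 members were lower and 22 higher, of which 710 of the 1196 were ER-targeted. The median change over all genes was -0.39 on the log2 scale as deposited, 0.16 with a common sum and 0.03 with TMM-type scaling. With TMM-type scaling 760 members were lower and 65 higher, and with a common sum 672 and 123. ER-targeted members made up 687 of the 760 and 611 of the 672.

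Of the 7 secretory lists, 6 had nearly all tested members lower in this test. Of the secreted proteins 31 of 32 tested were lower, of the ER chaperones 17 of 17, of the entry machinery 20 of 20, of the receptors and carriers 24 of 24, of the Golgi and lysosome proteins 15 of 16, and of the sterol and fatty acid proteins 14 of 16. Without cytosol library b these counts were 30, 16, 20, 24, 16 and 14. List medians ran from -4.86 (ER chaperones) to -4.06 (sterol and fatty acid proteins), and from -3.80 to -2.99 without cytosol library b. The list of degradation and stress membrane proteins was the exception, with 7 of 10 lower and a median of -2.81, or 8 and -2.09 without cytosol library b. In contrast, 1 of 28 tail-anchored, 1 of 74 ribosomal and 1 of 28 cytoskeletal members were lower, with medians of -0.27, -0.33 and -0.39, beside -0.39 for all genes. The tail-anchored count was 4 and the ribosomal count 9 without cytosol library b. Of the translation factors 3 of 24 were lower, of the aminoacyl-tRNA synthetases 5 of 19, of the glycolytic enzymes 2 of 14, of the cytosolic chaperones 8 of 19 and of the proteasome subunits 4 of 30. Of the oxidative phosphorylation proteins 8 of 42 were lower, of the mitochondrial carriers 1 of 18, of the ATF4 pathway 1 of 11 and of the immediate early genes 1 of 19. Beside these counts, 14.6% of all genes tested were lower. Under a common sum and under TMM-type scaling, 0 translation factors, glycolytic enzymes, cytosolic chaperones, proteasome subunits and oxidative phosphorylation proteins were lower. Of the aminoacyl-tRNA synthetases 1 and 3 were. The counts of the first 6 secretory lists were 31, 15, 20, 23, 15 and 12 under TMM-type scaling. The cytoskeletal member was vinculin (Vcl), a focal adhesion protein without the mark, which had 152 and 160 RPKM in the ER, against 83.0 and 211 RPKM in the cytosol at 0.5 h. Its untreated levels were 446 and 271 RPKM in the ER and 9.02 and 14.4 RPKM in the cytosol, and its change was -4.58 ± 0.53 (adjusted p = 6.5e-05 by limma), or -3.91 without cytosol library b.

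The largest falls that passed the test were those of Fstl1, Lamp2, Tmed5, Asah1, Pdia3 and P4ha1, all marked as ER-targeted. Fstl1, a secreted glycoprotein, had 384 and 351 RPKM in the ER, against 147 and 540 RPKM in the cytosol at 0.5 h. Untreated cells had 962 and 1426 RPKM in the ER, against 7.89 and 13.1 RPKM in the cytosol. The change was -6.33 ± 0.60 (adjusted p = 1.7e-05 by limma) and -5.40 ± 0.40 without cytosol library b. Pdia3, a disulfide isomerase of glycoproteins, had 226 and 239 RPKM in the ER, against 56.5 and 433 RPKM in the cytosol, where untreated cells had 913 and 884 RPKM and 4.66 and 11.2 RPKM. P4ha1, the catalytic subunit of collagen prolyl hydroxylase, had 67.7 and 63.3 RPKM in the ER, against 18.1 and 126 RPKM in the cytosol, where untreated cells had 253 and 286 RPKM and 1.16 and 2.60 RPKM. For all 6 the ER libraries of 0.5 h were below the untreated ER libraries and both cytosol libraries were above the untreated cytosol libraries.

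Rises were few and small, and included Dvl1, Cdk16, Safb2, Hmga1, Ski and Hist1h1b, none marked as ER-targeted. Hist1h1b, a linker histone of a multigene family, had 994 and 999 RPKM in the ER, against 1088 and 1169 RPKM in the cytosol at 0.5 h, with 275 and 151 RPKM in the ER and 458 and 600 RPKM in the cytosol of untreated cells. Its change was 1.18 ± 0.34 (adjusted p = 0.029 by limma). Hmga1, a chromatin protein that bends DNA, had 387 and 346 RPKM in the ER, against 234 and 196 RPKM in the cytosol, with 182 and 133 RPKM in the ER and 203 and 246 RPKM in the cytosol of untreated cells. Its change was 1.29 ± 0.40 (adjusted p = 0.043 by limma). All 6 calls were lost without untreated ER library b, at values from 0.75 (adjusted p = 0.14, Hist1h1b) to 1.45 (adjusted p = 0.14, Dvl1) by limma. Each of the 6 was also lost on leaving out at least 1 other library, which for Hmga1 and Ski included cytosol library b (adjusted p = 0.0996 and 0.073 by limma). With untreated ER library b left out, 937 members were lower and 0 higher.

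Members without the mark but mostly on the ER in untreated cells were also closer to an even split at 0.5 h. The 84 with an untreated fraction of 0.8 or more had a median of 0.514 at 0.5 h, and 0.666 with cytosol library a alone. The 809 ER-targeted members above that fraction had 0.508, and 0.733 with library a. Atf6, a membrane-bound stress sensor, had a fraction of 0.479 at 0.5 h against 0.964 untreated, and Creb3, a related factor of the ER membrane, 0.499 against 0.866. At the other end, the 238 ER-targeted members with an untreated fraction under 0.5 had a median of 0.281, and the 5365 others under 0.5 had 0.309. Since these groups are picked by an untreated value, these medians carry no test.

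For members with a given fraction, the deposited pooled fractions were followed over time and genotype, with no replicate behind them. The set differed between times, from 1192 ER-targeted members in untreated WT cells to 1414 at 0.5 h. In WT cells the median of ER-targeted members was 0.938, 0.470, 0.717, 0.771 and 0.891 at 0, 0.5, 1, 2 and 4 h, and that of the others 0.377, 0.320, 0.362, 0.395 and 0.425. In eIF2a S51A cells, which lack the serine of eIF2α that PERK phosphorylates, ER-targeted members had 0.858 at 0.5 h against 0.913 untreated. At 1, 2 and 4 h they had 0.914, 0.803 and 0.916, so the lowest median was at 2 h. In cells labelled ATF4-/-, which lack the transcription factor ATF4, ER-targeted members had 0.664 at 0.5 h against 0.942 untreated. At 1, 2 and 4 h they had 0.753, 0.828 and 0.837. The WT median of 0.470 at 0.5 h pools both cytosol libraries. With cytosol library a alone it was 0.676, and with b alone 0.377. The other members had 0.281 at 0.5 h against 0.369 untreated in S51A cells, and 0.325 against 0.439 in cells labelled ATF4-/-. In WT cells the difference between class medians was 1.99 and 1.53 (log2) with cytosol libraries a and b at 1 h, 2.16 and 2.08 at 2 h and 2.92 and 2.94 at 4 h, so the 0.5 h libraries, at 1.92 and 0.29, differed most from each other. Genotypes were not tested against each other here.

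The deposited mRNA fractions, which pool replicates, were set beside the footprint fractions. Over 1065 ER-targeted members with both fractions, the mRNA fraction on the ER had a median of 0.430 at 0.5 h, next to a footprint fraction of 0.475. In untreated cells 816 members had 0.763 and 0.946. With cytosol library a alone, the footprint median of those with a value was 0.698 at 0.5 h and 0.945 untreated. The nearness of mRNA and footprint medians at 0.5 h thus depends on cytosol library b. Over 4977 other members the medians were 0.409 for mRNA and 0.318 for footprints at 0.5 h, against 0.518 and 0.378 over 4998 members in untreated cells. Across all 6042 members at 0.5 h, mRNA and footprint fractions had a Pearson r of 0.242 and a Spearman rho of 0.239. Across 5814 members in untreated cells they were 0.612 and 0.475. With cytosol library a alone the Spearman rho was 0.234 at 0.5 h and 0.448 untreated. These are descriptions across genes, which are not independent replicates and share the cells and library depth. The mRNA libraries are very shallow, and the part of their depth in these values was not tested.

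Of the members, 544 have no recovered library value and enter no test, and their pooled fractions are included in the medians. A value was missing for under 4 reads in cytosol library b for 546 members, in cytosol library a for 85, in ER library a for 5 and in ER library b for 10, among the 6902 with a value. ER-targeted members were 84 of the 546 and 73 of the 85. Members missing in cytosol library a enter neither the medians with library a alone nor the counts without library b. A further 8 genes reached 10 RPKM but had no fraction on the ER. At the lower limit of 10 RPKM, the members nearest above it were Ambra1 (10.0038 RPKM, fraction 0.4495) and B3gnt2 (10.004 RPKM, 0.421), and the genes just below it were Pcdh19 (9.99947 RPKM, 0.627) and Sil1 (9.99783 RPKM, 0.522).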

How the data were processed

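Per the labels' protocols, fibroblasts were fractionated into cytosol and ER with digitonin and DDM, and footprints were made with micrococcal nuclease. The submitters' processing notes list cutadapt 1.6 and Bowtie 1.1.1. No source used here names their settings or a genome build. The authors deposited total levels in RPKM, a unit read from the values since no header names it, which pool ER and cytosol and both replicates. Per the file headers the second quantity is the fraction on ER, and the deposited fraction is a ratio, ER level over total. Of 60 value columns, 6 (later mRNA fractions) were not used.

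Single libraries were recovered as whole reads: a level times coding length (GENCODE M21, GRCm38) averages whole reads of both libraries, each weighted by what 1 read is worth, and was solved to a relative tolerance of 7e-12. The lowest recovered read number was 4, and a library below it counts as missing. At 0.5 h, 97.9% of ER and 97.8% of cytosol values with a coding length were solved, against 3 of 2996 with lengths exchanged between genes. The solving was tested on simulated data. Recovered libraries carry no replicate number. Replicate reads differed by more than sampling noise (chi-square per degree of freedom 3.37 in ER and 13.8 in cytosol), so none was a duplicate.

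limma 3.58.1 in R 4.3.3, with trend and empirical Bayes, was run on log2(RPKM + 1), which understates changes of low genes, with Benjamini-Hochberg adjustment over all genes with a mean of 1 RPKM or more, two-sided, threshold 0.05. The fit was also run on simulated data, in which both libraries of a group had the same expected levels. That check does not cover a library that stands apart, as cytosol library b did. Named genes are those with the largest differences past the test and values in all libraries of the contrast, those with the highest totals, and list examples by total (some are not reported here); Dcn, Lum, Npc1, Ube2j1 and Vcl were named for lying apart from their lists, and Atf6 and Creb3 after their values were seen. The members, lists and tests were chosen with earlier results of these data known. Hydropathy came from translated GENCODE coding sequences, since no RefSeq protein table was at hand, which differs from the plan. Alternatives were the pseudocount, filters, read minimum, scaling, a 4- or 8-library fit, voom and leaving out each library.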

Additional observations from a re-analysis of the deposited data

Results flagged for a closer look

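The split of footprints between ER and cytosol differed between 0.5 h and untreated cells by a test of that difference (limma). It was lower for 1175 members and higher for 8. Among the members with the largest changes, the log2 change was -6.33 for Fstl1, -6.29 for Lamp2, -6.24 for Tmed5, -6.22 for Asah1, -6.20 for Pdia3 and -6.16 for P4ha1. The changes without cytosol library b were -5.40 for Fstl1, -4.85 for Lamp2, -5.20 for Tmed5, -5.44 for Asah1, -4.74 for Pdia3 and -4.80 for P4ha1, in another order and all still past the threshold. With cytosol library a left out instead they were -7.26, -7.72, -7.27, -7.00, -7.66 and -7.52 for the same genes in that order. The largest rises were 2.01 for Dvl1, 1.35 for Cdk16, 1.33 for Safb2, 1.29 for Hmga1, 1.25 for Ski and 1.18 for Hist1h1b. ER and cytosol libraries of 0.5 h differed in interferon-stimulated genes, with sums of 26.2 and 30.5 RPKM in the ER and 543 and 332 RPKM in the cytosol, and the part of this in these changes was not tested.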

How the results depend on the processing

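No paired analysis was possible because the recovered libraries carry no replicate number. Counts are given as members higher in the ER, members higher in the cytosol, ER-targeted members higher in the ER, other members higher in the cytosol, and members with a lower and a higher difference than untreated. Against 100, 3796, 66, 3555, 1175 and 8, at least 20 reads in each library gave 33, 2028, 22, 1946, 542 and 3, with fewer genes tested. Common-sum scaling gave 1030, 447, 484, 425, 672 and 123, TMM-type scaling 689, 797, 402, 757, 760 and 65, and TMM-type scaling without cytosol library b, chosen after seeing the data, 1197, 1346, 820, 1281, 685 and 79. With only the libraries of the contrast, 32 members and 17 ER-targeted ones were higher in the ER, and 604 were lower and 0 higher than untreated (fewer samples; the full limma fit gave 8 and voom 33). voom gave 506 and 413 higher in the ER and 33 higher than untreated. Requiring reads in every library, also chosen after seeing the data, gave 13 higher than untreated. Leaving out 1 library gave ranges of 32 to 755, 2911 to 3716, 15 to 629, 2750 to 3260, 818 to 1366 and 0 to 33. Without cytosol library b the counts were 755, 3437, 629, 3260, 1196 and 22, without cytosol library a 43, 3716, 15, 3244, 1366 and 33. The difference between class medians ranged from 0.29 (without cytosol library a) to 1.93 (without b). A pseudocount of 0.1 and no filter on low values kept every count within 1.5 times.

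Of 1377 values of 96 single-gene results, 1165 kept direction and side of the threshold, 139 lost the call, 65 gained it and 8 turned. Those that turned were Atf4 with a common sum (0.26), TMM-type scaling (0.0154) and TMM-type scaling without cytosol library b (0.10), Serp1 with a common sum (0.12), Atf6 without cytosol library a (-0.72, adjusted p = 0.048 by limma; without cytosol library b 0.95), and, with TMM-type scaling without cytosol library b, B2m (1.88), Ppbp (1.25) and Cox4i1 (0.80). The cause was not tested. Depth limits members low in cytosol library b, where the median was 17 reads.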

Other observations

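Several proteins of the cytoskeleton, none marked as ER-targeted, had most of their footprints on the ER in untreated cells. They were chosen after their values were seen. By the deposited fractions, Plec (plectin) had 0.724 at 0.5 h against 0.956 untreated and Ahnak 0.625 against 0.934. Vcl had 0.515 against 0.968. Spp1 (osteopontin), a secreted matrix protein without the mark, had 0.438 at 0.5 h against 0.986 untreated, and Gas1, a membrane-bound protein at the cell surface, had 0.511 against 0.935.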
